A study of Mus musculus with 6 samples.

Results

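The genes described here are 37 imprinted mouse genes outside the Dlk1-Dio3 and Kcnq1ot1 domains, out of 24453 gene symbols with counts. They were chosen by symbol from a list that covers 17 loci. All 37 symbols were in the files, and 33 had enough counts to be tested. Their RNA was measured by sequencing in epidermal cells from the back skin of newborn mice, at postnatal day 0. The sort had kept cells with EpCAM, Sca1 and a high level of α6-integrin, which selects interfollicular epidermis rich in its progenitors. There were 3 libraries labelled Control and 3 labelled Ring1a-/- Ring1b-/-. Libraries are written C1 to C3 (Control) and K1 to K3 (knockout label) by the replicate number of their label. The labels give no strain, sex, Cre line, deleted exon or further genotype of the controls, and do not say that libraries came from separate animals. The p-values therefore measure only the spread between these libraries, which may be technical in part.

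An imprinted gene is expressed mainly from the copy inherited from a given parent. The choice rests on DNA methylation laid down in egg or sperm at imprinting control regions, and many imprinted genes act in fetal growth. Ring1 and Rnf2, the genes for Ring1a and Ring1b, encode the ubiquitin ligases of Polycomb repressive complex 1, which keeps developmental genes silent and is known to occupy the silent copy of some imprinted genes. At Zdbf2, transcription from a far upstream start in the early embryo is known to bring DNA methylation that clears Polycomb marks near the main promoter of the paternal copy. Counts per gene do not tell the parental copies apart, so the copy named for each gene below is textbook knowledge and was not measured.

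The labels were checked on the targeted genes first. Ring1 had 30.9, 17.1 and 3.90 CPM (a gene's counts relative to its library's total after TMM scaling) in C1 to C3, against 1.66, 5.20 and 14.2 CPM in K1 to K3. The order in the replicate 3 libraries was thus against the labels. Rnf2 was 43.2 to 63.2 CPM in the control-labelled and 55.4 to 64.1 CPM in the knockout-labelled libraries, and since the deleted part is not given, its counts check no label. Xist was 4.48 to 10.5 CPM in C1, C2 and K3 and 1757 to 6133 CPM in C3, K1 and K2, so sex is mixed across the labels. The Y-linked gene Ddx3y was 59.7 to 102 CPM in C1, C2, C3 and K3, and 0.0346 and 0.206 CPM in K1 and K2. C3 was thus high in both Xist and Ddx3y, and Xist as a covariate does not stand for sex cleanly. Why C3 had both was not tested. The first principal component (56.7% of the variance) placed the control-labelled libraries at -84.6 to -64 and the knockout-labelled libraries at 57.8 to 93.5, so C3 and K3 each lay with their labelled group. The second principal component (18.5% of the variance) set C1 and K1 apart from the other 4 libraries. Results are therefore also given with the replicate 1 and 2 libraries alone and without single libraries. Totals were 18951665 to 31187270 counts per library, and a gene with 0 counts could be at up to 0.0975 to 0.154 CPM (3 counts). Such floors, and the interval for Peg12 below, cover counting error only.

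Of the 33 tested imprinted genes, 9 rose in the knockout-labelled libraries and 0 fell (edgeR quasi-likelihood test, adjusted p under 0.05 over all 14890 genes tested). The 9 were Peg12, Zdbf2, Peg10, Ndn, Grb10, Plagl1, Ppp1r9a, Airn and Igf2r. In bulk RNA, fewer cells of a type and less RNA per cell cannot be told apart. Calls were thus 27.3% of the tested members, against 10.2% of all genes tested, and higher and lower calls alone were 7.17 and 2.98% of all genes tested. Members with an unadjusted p under 0.05 numbered 12 higher and 4 lower, where 24.3% of all genes had such a p. DESeq2 called 10 higher and 1 lower, and limma-voom 9 and 0. The median log2 fold change was 0.14 over the 33 members and 0.00 over all genes tested. A member silent in the control-labelled libraries could pass the count filter only through the knockout-labelled ones, so these shares hold for the tested members alone. In 10 members all knockout-labelled CPM lay above all control-labelled ones, and in 7 members below. Of the 7, Usp29 had 16, 4 and 36 counts in K1 to K3, and Nap1l5 had 1, 8 and 5. On those libraries alone neither would have passed the count filter. Their separate groups thus support nothing about the members as a set. Over all genes, 32.4% had separate groups, 17.6% with higher and 14.8% with lower values.

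**Figure D1:**
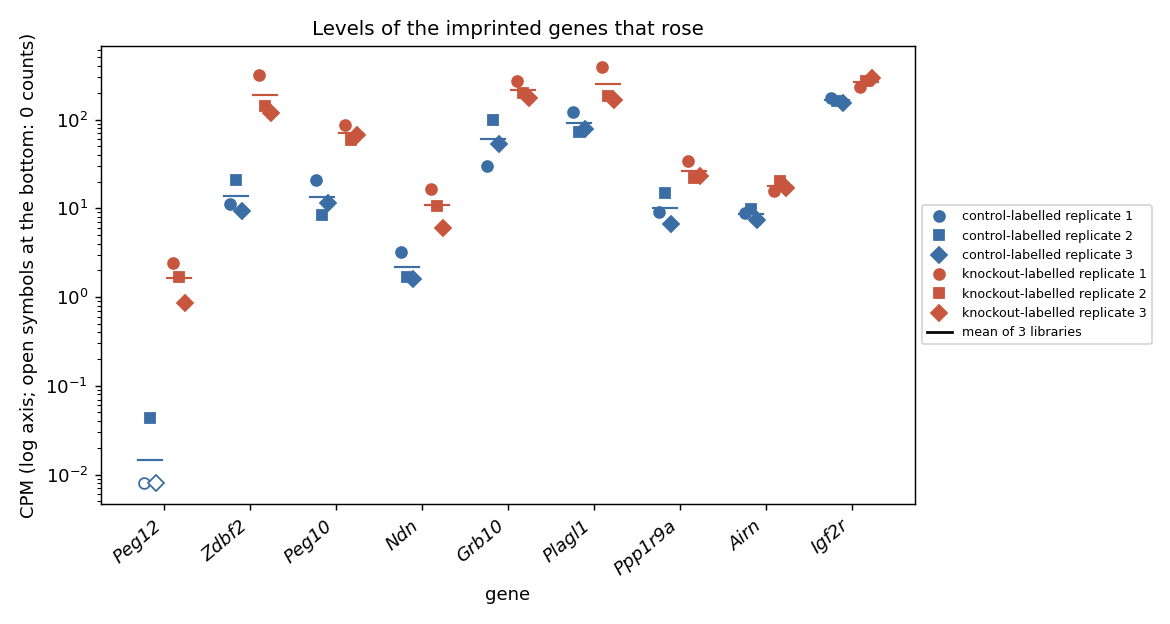
Level of the 9 imprinted genes that rose, in CPM on a log axis, in each of 3 control-labelled (blue) and 3 knockout-labelled (red) libraries; lines are means of 3 libraries and open symbols mark 0 counts. Every red symbol of a gene lies above every blue symbol, and K1 is the highest red symbol for 7 of the 9 genes (all but Airn and Igf2r), as for Zdbf2 (314 CPM) and Plagl1 (393 CPM).

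The count of 9 was smaller with any 1 library left out, as was the count of calls over all genes (811 to 1393 against 1512). With C1, C2 or C3 left out in turn, 7, 6 and 2 members passed, and with K1, K2 or K3 left out, 5, 3 and 6. With the replicate 1 and 2 libraries alone, which leaves out the pair whose Ring1 order went against the labels, 1 member passed (Zdbf2). With the replicate 2 and 3 libraries alone, 9 were higher and 1 lower, and 8 of the 9 reported calls were among them. With Xist as a covariate 3 passed. The direction of all 9 held in each of the 17 alternatives where the gene was tested.

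Zdbf2, which encodes a DBF-type zinc finger protein and is expressed from the paternal copy, had the largest change among members above 1 CPM in both groups. It lies on chromosome 1 from 63273265 to 63314576, plus strand (GENCODE M21 on GRCm38, as all gene positions here). It had 11.3, 20.6 and 9.24 CPM in C1 to C3, against 314, 141 and 118 CPM in K1 to K3. Each knockout-labelled library was far above the highest control-labelled one, and K1 stood above K2 and K3. The log2 fold change was 3.80 ± 0.46 (SE, n = 3 libraries per group), a 13.9-fold rise (edgeR adjusted p = 0.00196). It passed in all 17 alternatives, with log2 fold changes of 3.12 to 4.22, and with the replicate 1 and 2 libraries alone it was 3.82 (adjusted p = 0.0127).

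RefSeq (GRCm38.p6) gives Zdbf2 a main start and a second start 72.9 kb upstream. Both windows, most of each lying before the start, are printed 5′ to 3′ because the gene had the most stable rise and its starts differ in CpG content. Capitals mark CG dinucleotides.
Zdbf2 main start, chr1:63273019-63273318, plus strand: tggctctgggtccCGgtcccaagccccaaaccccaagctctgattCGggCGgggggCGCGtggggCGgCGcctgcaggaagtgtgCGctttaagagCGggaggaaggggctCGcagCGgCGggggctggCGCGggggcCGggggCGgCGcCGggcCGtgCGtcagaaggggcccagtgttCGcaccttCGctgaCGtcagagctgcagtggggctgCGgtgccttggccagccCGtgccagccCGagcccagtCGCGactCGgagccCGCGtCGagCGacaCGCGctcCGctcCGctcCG
Zdbf2 upstream start, chr1:63200108-63200407, plus strand: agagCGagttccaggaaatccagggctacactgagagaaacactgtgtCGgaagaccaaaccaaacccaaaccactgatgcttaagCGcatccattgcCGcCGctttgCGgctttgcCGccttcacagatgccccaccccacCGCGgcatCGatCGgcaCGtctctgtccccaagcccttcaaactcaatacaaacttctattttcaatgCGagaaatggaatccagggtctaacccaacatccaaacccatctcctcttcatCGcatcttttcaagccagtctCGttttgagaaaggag
The main window held 38 CG dinucleotides, a number reached by 4.95% of the 32851 windows in the RefSeq table. The upstream window held 15, a number reached by 34.6% of all windows. The counts per gene do not show which start was used.

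Peg10 rose and Sgce, whose start faces it, did not pass. Peg10, a retrotransposon-derived gene needed in the placenta (chromosome 6, 4747306 to 4760517, plus strand), is separated by 98 bases from Sgce, an ε-sarcoglycan gene (4674350 to 4747207, minus strand), and both are paternally expressed. Peg10 had 20.8, 8.44 and 11.4 CPM in C1 to C3, against 87.7, 58.8 and 66.6 CPM in K1 to K3. The lowest knockout-labelled library was well above the highest control-labelled one. Its log2 fold change was 2.39 ± 0.35 (model SE; adjusted p by edgeR = 0.00446), and of 17 alternatives the call was lost only with the replicate 1 and 2 libraries alone (adjusted p = 0.0504). Sgce had 13.2, 11.2 and 14.3 CPM in C1 to C3, against 16.1, 15.4 and 13.1 CPM in K1 to K3, with overlapping groups (log2 fold change 0.20 ± 0.24; edgeR adjusted p = 0.671). The Peg10 to Sgce ratio of CPM was 0.751 to 1.57 in the control-labelled and 3.81 to 5.46 in the knockout-labelled libraries.

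The other genes of that region differed among themselves. Ppp1r9a, which encodes the actin-binding neuronal scaffold neurabin and is imprinted only in some tissues (chromosome 6, 4902917 to 5165661, plus strand), had 9.08, 14.7 and 6.60 CPM in C1 to C3. It had 34.2, 22.2 and 22.8 CPM in K1 to K3, all above the control-labelled range. The log2 fold change was 1.39 ± 0.34 (model SE; adjusted p by edgeR = 0.0366). The call was lost on leaving out any library but C2 (adjusted p = 0.0701 to 0.115), with the replicate 1 and 2 or 2 and 3 libraries alone (0.198 and 0.076), with an offset for GC content and length (0.0575) and with Xist as a covariate (0.0947). Asb4, an ankyrin-repeat gene, stayed between 0 and 0.812 CPM in all 6 libraries. Calcr, the calcitonin receptor gene, had 0 counts in every library.

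The Igf2 axis includes a growth factor, its clearing receptor and the noncoding RNAs of their loci. H19, a maternally expressed noncoding RNA (chromosome 7, 142575529 to 142578143, minus strand), was the most abundant member and took 0.254 to 0.698% of a library's counts. It had 5089, 6436 and 6973 CPM in C1 to C3, against 2738, 4651 and 4002 CPM in K1 to K3. All knockout-labelled values were below all control-labelled ones, but the log2 fold change of -0.70 ± 0.24 did not pass (model SE; adjusted p by edgeR = 0.107). It passed as lower in 4 of 17 alternatives, among them DESeq2 (adjusted p = 0.037), the offset for GC content and transcript length (0.0183) and the replicate 2 and 3 libraries alone (0.0125).

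Igf2, the paternally expressed fetal growth factor 72.6 kb away (142650766 to 142666816, minus strand), stood at 1923, 3816 and 3136 CPM in C1 to C3. It had 2458, 3057 and 3770 CPM in K1 to K3, within much the same range (log2 fold change 0.07 ± 0.28; edgeR adjusted p = 0.916). Per kilobase of exon, control-labelled H19 stood at 2507 CPM and Igf2 at 517 CPM, against 1543 and 541 CPM in the knockout-labelled libraries. The H19 to Igf2 ratio of CPM was 2.65, 1.69 and 2.22 in C1 to C3, against 1.11, 1.52 and 1.06 in K1 to K3. The ratio was lower in every knockout-labelled library, yet C2 and K2 were close.

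Igf2r and Airn, which share a locus on chromosome 17, both rose. Igf2r, the maternally expressed receptor that takes up Igf2 for breakdown (12682406 to 12769664, minus strand), stood at 175, 162 and 155 CPM in C1 to C3, against 232, 271 and 290 CPM in K1 to K3. The control-labelled libraries were tight and all lay below the knockout-labelled ones. The log2 fold change was 0.69 ± 0.16 (model SE; adjusted p by edgeR = 0.0309). It no longer passed without C2, C3, K2 or K3 (adjusted p = 0.108 to 0.141), with the replicate 1 and 2 libraries alone (0.379) and under an offset for GC content and length (log2 fold change 0.33, adjusted p = 0.253).

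Airn, the paternal noncoding RNA whose transcription silences Igf2r in cis, starts within Igf2r on the opposite strand (12741311 to 12860136, plus strand). It had 8.82, 9.83 and 7.32 CPM in C1 to C3, against 15.7, 20.5 and 16.7 CPM in K1 to K3. The groups were again separate, with a log2 fold change of 1.03 ± 0.26 (model SE; adjusted p by edgeR = 0.0392). Passing was lost without C1, C2, C3, K2 or K3 (adjusted p = 0.0755 to 0.156), with the replicate 1 and 2 libraries alone (0.306) and with library size alone as the scaling (0.0506). The Airn to Igf2r ratio of CPM was 0.0472 to 0.0607 in the control-labelled and 0.0577 to 0.0756 in the knockout-labelled libraries, with overlap. GENCODE exons of the pair share 0 bases, but the strand of counting is not given, so reads of unspliced Igf2r RNA and Airn cannot be told apart.

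Grb10 and Plagl1, both growth regulators, rose. Grb10, a maternally expressed adaptor that binds and dampens the insulin and IGF1 receptors (chromosome 11, 11930508 to 12038683, minus strand), stood at 30.1, 98.1 and 52.5 CPM in C1 to C3. It had 274, 198 and 173 CPM in K1 to K3. Control-labelled values were widely spread but stayed below the knockout-labelled ones (log2 fold change 1.84 ± 0.40 as model SE; adjusted p by edgeR = 0.0218). The call was lost without C3, K1 or K2 (adjusted p = 0.0561 to 0.0861) and with the replicate 1 and 2 libraries alone (0.121). Ddc, the dopa decarboxylase gene next to Grb10, had 4 counts in C2 and none elsewhere.

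Plagl1, a paternally expressed zinc finger transcription factor (chromosome 10, 13060504 to 13131694, plus strand), had 123, 72.9 and 78.4 CPM in C1 to C3, against 393, 185 and 166 CPM in K1 to K3. The replicate 1 library was the highest of each group. The log2 fold change was 1.44 ± 0.36 (model SE; adjusted p by edgeR = 0.0375). Without K1 it was 0.94 (adjusted p = 0.0548), and the call was also lost without C2, C3 or K2 (0.0558 to 0.131) and with the replicate 1 and 2 libraries alone (0.12).

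At the Prader-Willi and Angelman region on chromosome 7, 2 of 5 tested members rose (7 listed), or 40% against 7.17% of all genes called higher. The 2 were Ndn and Peg12, and the limit given for Peg12 below holds for this share. Ndn, the paternally expressed MAGE family gene necdin (62346569 to 62350262, plus strand), had 3.23, 1.70 and 1.61 CPM in C1 to C3, against 16.3, 10.6 and 5.98 CPM in K1 to K3. The groups did not overlap, and the knockout-labelled libraries spread widely. The log2 fold change was 2.33 ± 0.49 (model SE; adjusted p by edgeR = 0.0196). It no longer passed without C2, C3, K1 or K2 (adjusted p = 0.0521 to 0.0777) and with the replicate 1 and 2 libraries alone (0.0749).

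Peg12, a paternally expressed intronless gene of the Frat family of GSK3-binding proteins (62461871 to 62464510, minus strand), stood at 0, 1 and 0 counts in C1 to C3. It had 69, 33 and 26 counts in K1 to K3, or 2.39, 1.70 and 0.845 CPM. It passed the count filter only through the knockout-labelled libraries, where it is high, so its place among the 9 calls supports nothing about the members as a set. Scaled to library size, the ratio of counts was 127 (95% interval 22.5 to 5074), and the edgeR adjusted p was 0.0110. Passing was lost without C3 (adjusted p = 0.0523) and with the replicate 1 and 2 libraries alone (0.0757). Magel2, a MAGE family neighbour, had 0, 8 and 0 counts in C1 to C3, against 96, 14 and 21 counts in K1 to K3. Its groups did not overlap, but it did not pass (edgeR adjusted p = 0.148). Without C2, the only control-labelled library with Magel2 counts, it passed (adjusted p = 0.0487). Magel2 too passed the count filter only through the knockout-labelled libraries, so its separate groups support nothing about the members as a set.

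The rest of that region did not pass. Mkrn3, a paternally expressed RING finger gene, was 0.0375 to 1.49 CPM in the control-labelled and 0.208 to 1.13 CPM in the knockout-labelled libraries. Ube3a, the ubiquitin ligase gene whose imprint is limited to neurons, had 42.9, 86.0 and 75.7 CPM in C1 to C3, against 56.5, 64.8 and 60.5 CPM in K1 to K3. Its groups overlapped fully (log2 fold change -0.17 ± 0.26; edgeR adjusted p = 0.755). Snrpn and Snurf, which are made from a shared transcript, are listed at 0 in all 6 libraries. In GENCODE, 100% of the Snurf exon bases lie in Snrpn exons, and how reads of overlapping genes were counted is not given, so their 0 was not read as absence of RNA.

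The promoter windows of other genes that rose differed in CG content. The table held windows for 31 of the 37 members (49 windows), with none for H19, Impact, Peg10, Peg13, Sgce and Trappc9. A window is shown for Plagl1, Ppp1r9a, Ndn and Peg12, again with CG dinucleotides in capitals.
Plagl1, chr10:13090582-13090881, plus strand: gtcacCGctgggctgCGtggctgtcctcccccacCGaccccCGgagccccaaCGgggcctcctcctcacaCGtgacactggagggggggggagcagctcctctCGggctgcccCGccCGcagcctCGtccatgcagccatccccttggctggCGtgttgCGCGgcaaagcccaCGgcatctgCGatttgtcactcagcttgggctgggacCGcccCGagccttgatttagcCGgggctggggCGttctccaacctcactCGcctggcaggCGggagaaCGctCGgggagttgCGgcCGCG
Ppp1r9a, chr6:4903061-4903360, plus strand: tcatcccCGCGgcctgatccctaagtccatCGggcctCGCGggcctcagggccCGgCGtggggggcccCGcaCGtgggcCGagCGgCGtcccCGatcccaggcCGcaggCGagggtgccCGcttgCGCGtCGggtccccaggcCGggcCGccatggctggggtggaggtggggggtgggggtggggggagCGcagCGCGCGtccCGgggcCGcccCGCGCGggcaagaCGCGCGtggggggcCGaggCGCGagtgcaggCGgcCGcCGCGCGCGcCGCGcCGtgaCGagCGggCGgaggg
Ndn, chr7:62348027-62348326, plus strand: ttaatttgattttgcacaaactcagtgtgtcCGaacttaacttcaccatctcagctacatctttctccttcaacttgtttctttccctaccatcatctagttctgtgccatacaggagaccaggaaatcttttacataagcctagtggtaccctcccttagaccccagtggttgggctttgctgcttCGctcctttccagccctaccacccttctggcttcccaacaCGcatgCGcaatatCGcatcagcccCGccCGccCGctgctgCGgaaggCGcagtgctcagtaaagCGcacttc
Peg12, chr7:62464461-62464760, minus strand: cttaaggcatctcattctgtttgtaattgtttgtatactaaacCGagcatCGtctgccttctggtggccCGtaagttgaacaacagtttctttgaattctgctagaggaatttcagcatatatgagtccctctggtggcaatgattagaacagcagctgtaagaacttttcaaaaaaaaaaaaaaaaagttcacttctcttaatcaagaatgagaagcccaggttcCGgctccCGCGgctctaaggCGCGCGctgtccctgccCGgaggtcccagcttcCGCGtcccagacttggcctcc
The printed Ppp1r9a window held 48 CG dinucleotides and that of Plagl1 26, numbers reached by 1.22 and 16.9% of all windows. Ppp1r9a has a second window, which held 10. Ndn held 11 and Peg12 12, numbers reached by 41.4 and 39.6%. Among the other genes that rose, Igf2r held 34, Airn 3 and the Grb10 windows 9 and 45. The median was 15 over the 49 member windows and 7 over all windows. The core motif of YY1, a zinc finger factor known to bind at Peg3, was searched as AANATGGC on both strands. It was in 2 of the 49 member windows (4.08%; Mkrn3 and Ube3a) and in 6.05% of all windows.

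**Figure D2:**
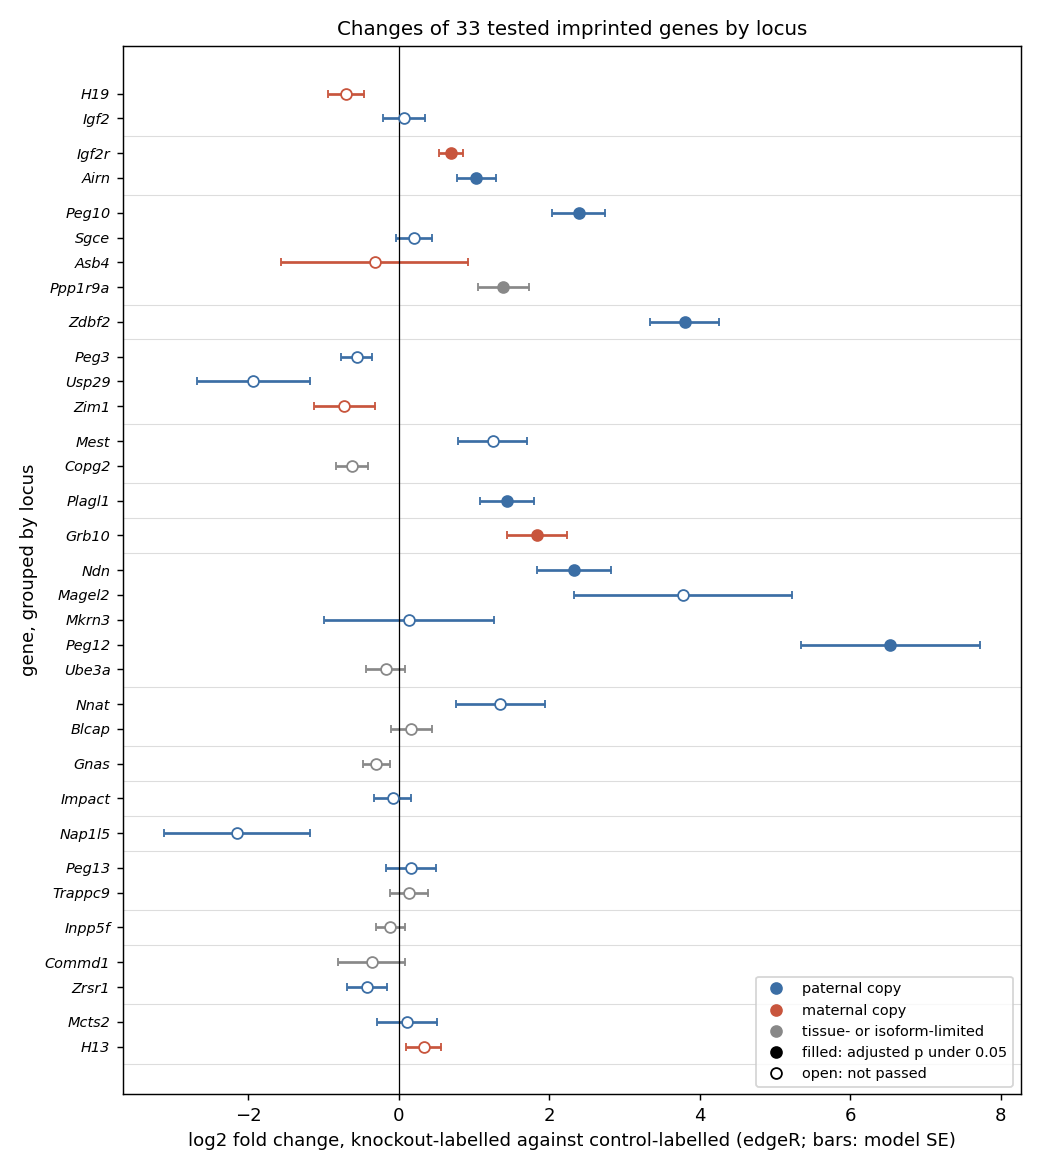
Log2 fold change of the 33 tested imprinted genes, knockout-labelled against control-labelled, with the model SE as bars, grouped by locus and coloured by the copy that is usually expressed; filled symbols passed at adjusted p under 0.05. Filled symbols all lie to the right of 0, the nearest being Igf2r (0.69), and the Peg3 locus lies wholly to the left without passing.

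The 3 genes of the Peg3 locus on chromosome 7 had lower values in every knockout-labelled library, and none passed. Peg3, a paternally expressed zinc finger gene (6703892 to 6730431, minus strand), stood at 1096, 927 and 1020 CPM in C1 to C3, against 508, 710 and 843 CPM in K1 to K3. The groups were separate, with K3 nearest to the control-labelled libraries (log2 fold change -0.56 ± 0.21 as model SE; adjusted p by edgeR = 0.143). Usp29, a ubiquitin protease gene that starts 146 bases away on the other strand, had 3.56, 1.57 and 2.36 CPM in C1 to C3, against 0.554, 0.206 and 1.17 CPM in K1 to K3. These too did not overlap (edgeR adjusted p = 0.155). Zim1, the maternally expressed zinc finger gene beside them, was 3.97 to 6.34 CPM in the control-labelled and 2.73 to 3.22 CPM in the knockout-labelled libraries (edgeR adjusted p = 0.325).

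**Figure D3:**
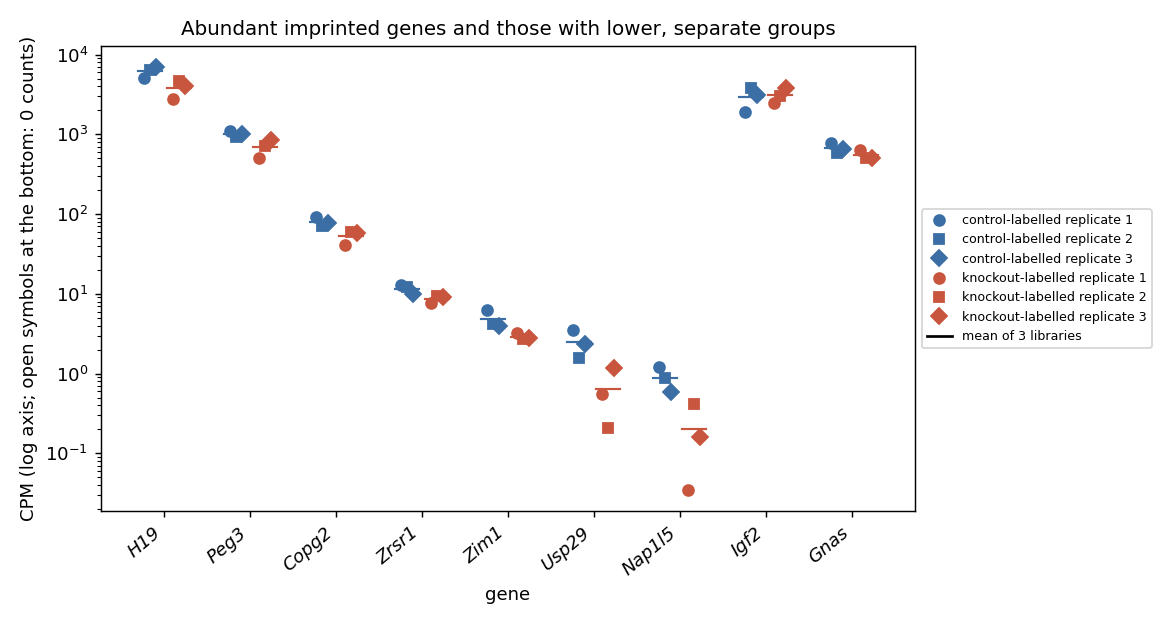
Level in CPM on a log axis, per library, of the 7 tested imprinted genes whose knockout-labelled values all lie below the control-labelled ones, and of the abundant genes Igf2 and Gnas; lines are means of 3 libraries. For H19 the highest knockout-labelled value (4651 CPM) is close to the lowest control-labelled one (5089 CPM), and none of these genes passed.

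At the Mest locus on chromosome 6, Mest and Copg2 had differences of opposite sign and neither passed. Mest, a paternally expressed hydrolase-fold gene (30723547 to 30748465, plus strand), had 33, 12.3 and 17.7 CPM in C1 to C3, against 81.2, 29.6 and 39.4 CPM in K1 to K3. The groups overlapped, since K2 lay below C1 (log2 fold change 1.25 ± 0.46 as model SE; adjusted p by edgeR = 0.128). It passed in 3 of 17 alternatives, among them the replicate 2 and 3 libraries alone (adjusted p = 0.0137) and DESeq2 (0.0386). Copg2, a coat protein gene that overlaps the end of Mest on the other strand, had 92.9, 71.5 and 76.6 CPM in C1 to C3, against 40.5, 59.1 and 57.7 CPM in K1 to K3. The groups were separate (edgeR adjusted p = 0.111). The overlap covers 912 exon bases, so some reads of the pair cannot be told apart without strand.

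The remaining members did not pass. Gnas, which encodes the stimulatory G protein α subunit, had 777, 585 and 654 CPM in C1 to C3, against 633, 500 and 500 CPM in K1 to K3. The groups overlapped through K1 (log2 fold change -0.30 ± 0.18 as model SE; adjusted p by edgeR = 0.363), and with the GC and length offset Gnas passed as lower (-0.85, adjusted p = 0.0199). RefSeq gives Gnas several starts, and the counts per gene do not tell their transcripts apart. Nnat, a paternally expressed proteolipid gene within an intron of Blcap, was 6.64 to 9.66 CPM in the control-labelled libraries and 40.8, 10.3 and 7.70 CPM in K1 to K3. K1 alone stood apart there (edgeR adjusted p = 0.203). Nap1l5, a nucleosome assembly protein gene, was 0.582 to 1.2 CPM in the control-labelled and 0.0346 to 0.412 CPM in the knockout-labelled libraries (edgeR adjusted p = 0.215).

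Impact, Blcap, Trappc9, Inpp5f and H13 had overlapping groups. Impact, a translation regulator, was 42.6 to 55.0 CPM in the control-labelled and 30.8 to 52.5 CPM in the knockout-labelled libraries. Blcap was 18.3 to 32.9 and 24.6 to 30.4 CPM, the trafficking gene Trappc9 16.4 to 22.1 and 17.9 to 27.6 CPM, and the phosphoinositide phosphatase gene Inpp5f 44.5 to 52.6 and 40.2 to 53.6 CPM. H13, the signal peptide peptidase gene, was 58.7 to 66.5 and 59.4 to 103 CPM. For these 5 the log2 fold change lay between -0.11 and 0.33 (edgeR adjusted p = 0.426 to 0.892), and its sign turned in some alternatives for all but Inpp5f. Of the members that lie inside another gene, Zrsr1 within Commd1 was 9.85 to 12.9 and 7.75 to 9.32 CPM, without overlap (edgeR adjusted p = 0.392). Commd1, Peg13 (within Trappc9) and Mcts2 (within H13) had overlapping groups and adjusted p of 0.684 to 0.901.

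By expressed copy, 6 of 19 tested paternally expressed genes rose (21 listed), as did 2 of 6 maternally expressed ones and 1 of 8 tested genes whose imprint is limited to some tissues or isoforms (10 listed). Called shares were 31.6, 33.3 and 12.5%, all higher, against 7.17% of all genes called higher. The 31.6% includes Peg12, which passed the count filter only through the knockout-labelled libraries, so its call supports nothing about the paternal class. The medians of the log2 fold change were 0.20, 0.01 and -0.14, against 0.00 over all genes tested. Differences between these classes were not tested. Genes of opposite parental copy at 1 locus could have the same sign, as Igf2r and Airn did.

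**Figure D4:**
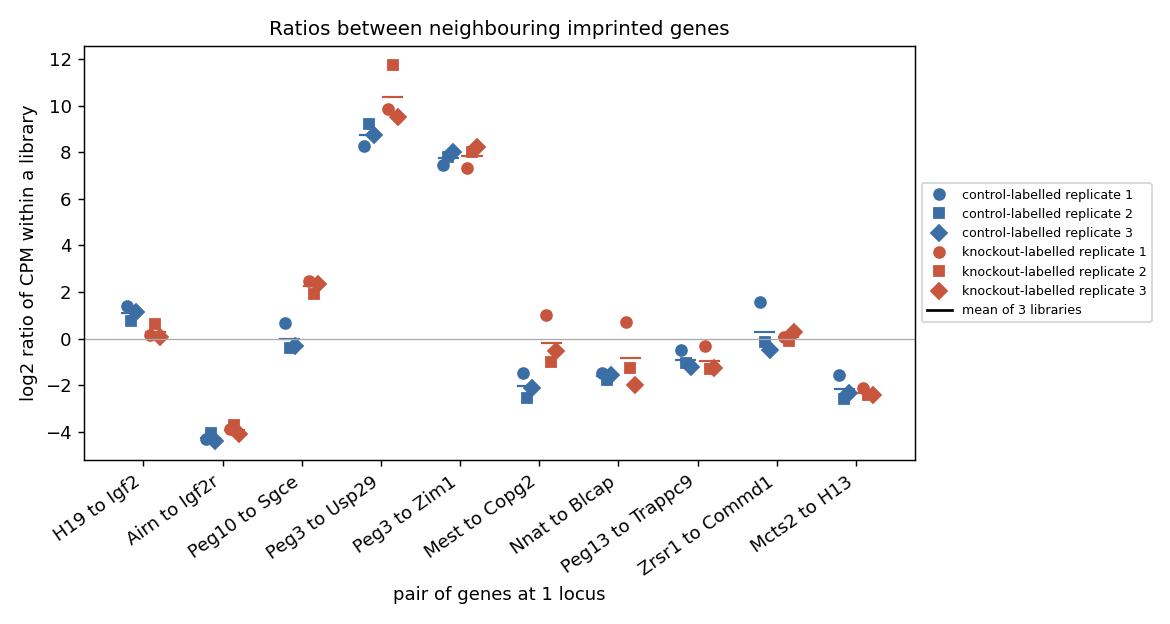
Log2 ratio of CPM within each library for 10 pairs of imprinted genes at 1 locus, control-labelled (blue) and knockout-labelled (red), with means of 3 libraries as lines. The groups are separate for H19 to Igf2, Peg10 to Sgce, Peg3 to Usp29 and Mest to Copg2, and overlap for the other 6 pairs.

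These 10 ratios were chosen after the values were seen. They were not tested: with 3 against 3 libraries an exact two-sided permutation test cannot give a p under 0.1. The Mest to Copg2 ratio of CPM was 0.172 to 0.355 in the control-labelled and 0.501 to 2.00 in the knockout-labelled libraries, highest in K1. For Peg3 to Usp29 it was 308 to 589 in the control-labelled and 720 to 3449 in the knockout-labelled libraries. There Usp29 had only 16, 4 and 36 counts in K1 to K3, so that ratio is imprecise, above all in K2 (3449).

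Among 22 genes that set or keep imprints, 1 of 19 tested rose and 0 fell, or 5.26% against 10.2% of all genes tested. This was Zfp57, the zinc finger protein that keeps DNA methylation at imprinting control regions. Zfp57 had 6, 6.99 and 5.34 CPM in C1 to C3, against 48.2, 21 and 20 CPM in K1 to K3. Every knockout-labelled library was well above the controls (log2 fold change 2.28 ± 0.38 as model SE; adjusted p by edgeR = 0.00767), and the call held in all 17 alternatives. At an unadjusted p under 0.05, 6 of these genes were lower, and DESeq2 called 1 lower. In 8 of the 19 (42.1%, against 14.8% of all genes) every knockout-labelled value lay below every control-labelled one. Among them was Ezh2, the Polycomb histone methyltransferase, with 115, 122 and 141 CPM in C1 to C3, against 49.5, 86.7 and 82.5 CPM in K1 to K3 (edgeR adjusted p = 0.0721). The maintenance methyltransferase Dnmt1 was 293 to 371 CPM in the control-labelled and 206 to 303 CPM in the knockout-labelled libraries, with a small overlap (edgeR adjusted p = 0.273).

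Of 14 other genes of the insulin-like growth factor axis, 4 rose and 1 fell, or 35.7% against 10.2% of all genes tested. Igfbp2, a secreted IGF-binding protein, had 90.9, 141 and 136 CPM in C1 to C3, against 447, 636 and 569 CPM in K1 to K3 (edgeR adjusted p = 0.00115). Igfbp6, which prefers Igf2 as its ligand, had 1.31, 1.44 and 2.91 CPM in C1 to C3, against 28.9, 24.5 and 25.2 CPM in K1 to K3 (edgeR adjusted p = 8.68e-04). Both held in all 17 alternatives, and the knockout-labelled libraries lay far above the control-labelled ones for each. Igfbp4 and the Igf2 mRNA-binding protein gene Igf2bp2 rose by log2 fold changes of 1.41 and 1.37 (edgeR adjusted p = 0.0225 and 0.00555), and the Igf2bp2 call was lost only with the replicate 1 and 2 libraries alone (0.0598). Irs1, an adaptor below the IGF1 and insulin receptors, fell by 0.96 on the log2 scale (edgeR adjusted p = 0.0486). The Igfbp4 call was lost in 6 of 17 alternatives, among them without C3, K2 or K3 (adjusted p = 0.0554 to 0.0674), the GC and length offset (0.0648) and the replicate 1 and 2 libraries alone (0.12). The Irs1 call was lost in 11 of 17, among them leaving out any library but C2 (adjusted p = 0.0750 to 0.120), DESeq2 size factors (0.0502) and the replicate 1 and 2 libraries alone (0.194).

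A list of genes near these loci holds some that are themselves imprinted in certain tissues. Of 52 listed neighbours 36 were tested, and 1 rose and 1 fell, or 5.56% against 10.2% of all genes. Cep41, a centrosome gene next to Mest, was 13.2 to 21.8 CPM in the control-labelled and 5.82 to 9.17 CPM in the knockout-labelled libraries, where it fell (edgeR adjusted p = 0.0453). The Cep41 call was lost without C1, C2, C3, K2 or K3 (adjusted p = 0.0601 to 0.140), with the replicate 1 and 2 libraries alone (0.276) and with Xist as a covariate (0.102). In the Dlk1-Dio3 and Kcnq1ot1 domains, 7 of 15 tested genes rose and 1 fell, or 53.3% against 10.2% of all genes. Of the 7, only Cdkn1c lies in the Kcnq1ot1 domain, where Ascl2 fell, so the pooled share does not describe that domain. Mirg and Dio3, among the 7, had 0 to 4 counts in each control-labelled library. They passed the count filter only through the knockout-labelled libraries, where they are high, so their calls support nothing about the domains as a set. Rtl1, also among the 7, had 33, 13 and 7 counts in C1 to C3. On those libraries alone Rtl1 would not have passed the count filter, so the same limit holds for its call.

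Markers of the sorted cells and of other cell types were read beside these changes. Summed CPM of 7 keratinocyte markers was 26315 to 41104 in the control-labelled and 24765 to 29145 in the knockout-labelled libraries, and 1 of them fell (Trp63). Of 7 fibroblast markers 1 was called (Postn, lower), and their sum was 1359 to 1900 against 975 to 1268 CPM. Postn alone was 1109 to 1116 against 381 to 638 CPM, and the other 6 had overlapping groups. Of 6 hair follicle markers 1 rose (Krt79) and 2 fell (Krt25 and Krt71), with sums of 125 to 427 against 585 to 1034 CPM. Krt25 had 0 counts in each of K1 to K3, and Krt71 had 5, 21 and 12. On those libraries alone neither would have passed the count filter, so their calls support nothing about the markers as a set. Krt79 had 512, 415 and 416 CPM in K1 to K3, and without it the sums overlapped (110 to 384 against 170 to 522 CPM). Of 5 Merkel cell markers Krt18 and Isl1 rose, with sums of 0.612 to 2.63 against 24.4 to 74.4 CPM, while Atoh1, which defines these cells, was at 0 to 0.342 CPM. Krt18 made up most of that sum, with 67.5, 25.4 and 19.8 CPM in K1 to K3. Krt8 and Krt20 were at 0 to 2.18 CPM and were not tested, and Isl1, at 0 counts in the control-labelled libraries, passed the count filter only through the knockout-labelled ones. None of the tested endothelial, melanocyte, immune, muscle or Schwann cell markers was called by edgeR, with 2 (both melanocyte) higher at an unadjusted p under 0.05. The part of such cells in the changes of the imprinted genes was not tested.

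**Figure D5:**
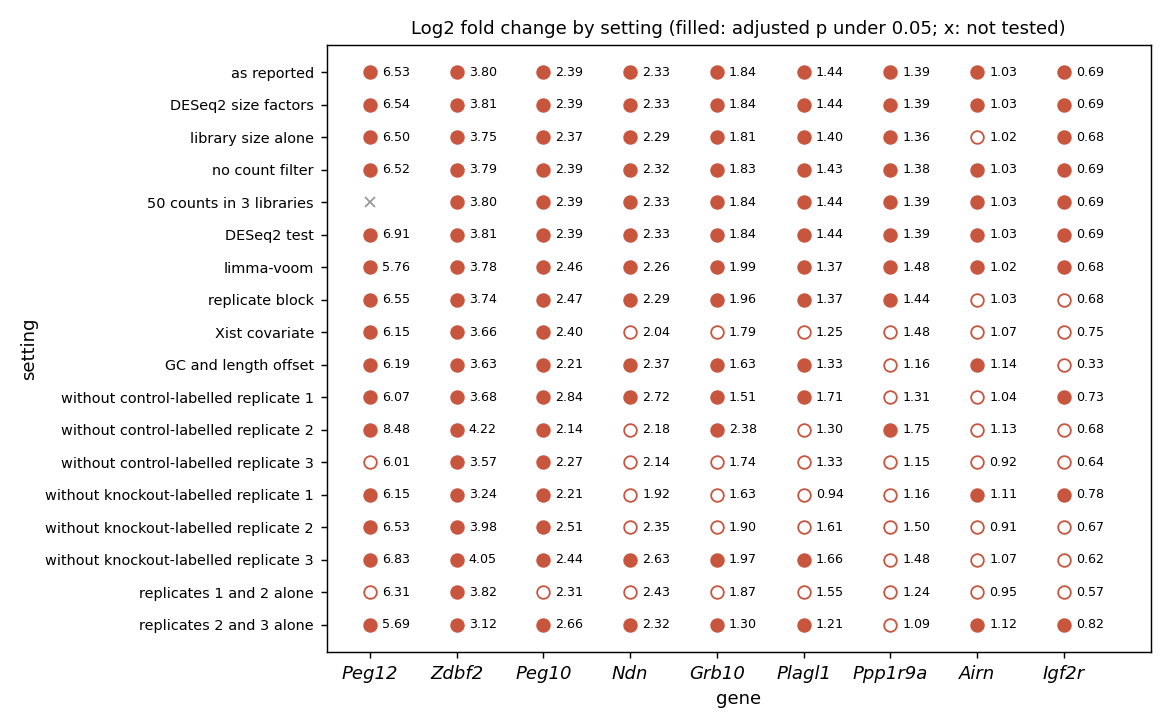
Log2 fold change of the 9 imprinted genes that rose (columns) under the reported setting and 17 alternatives (vertical axis); filled symbols passed at adjusted p under 0.05 and a cross marks a gene not tested. Zdbf2 is filled throughout, Peg10 in all but the replicate 1 and 2 libraries alone, and Airn and Ppp1r9a in 8 alternatives each.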

How the data were processed

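RNA from 6 libraries of sorted epidermal cells (10 ng amplified with the Nugen Ovation V2 kit, per the labels' protocols) had been sequenced as single reads of 100 nucleotides. The deposited files hold raw counts per gene symbol, 1 file per library. Per the submitters' processing notes, the genome was mm10 and the tools were HTSeq 0.6.1, TopHat2 2.0.13, DESeq2 1.6.3 and Cufflinks 2.2.1. The role of each, the annotation and the strand of counting are not given in the sources used here.

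The counts were fitted with edgeR 4.0.16 in R 4.3.3 (TMM, filterByExpr with a minimum count of 10 and total of 15, quasi-likelihood F test, two-sided, no covariate), and p-values were adjusted over all 14890 genes tested by Benjamini-Hochberg. Calls are at 0.05. ± is the model SE of a log2 fold change. DESeq2 1.42.0, limma-voom 3.58.1, other scalings and filters, a replicate block, Xist as a covariate, a GC and length offset and left-out libraries were alternatives. The replicate 2 and 3 libraries alone were added after seeing the data. Gene positions are from GENCODE M21 and promoter windows from RefSeq GRCm38.p6. GC content and length for the offset were known for 97.9% of tested genes. The fits were tested on simulated counts. No library pair agreed within sampling noise (smallest chi-square per degree of freedom 28.6). The members, lists and tests were chosen with earlier results of these data known. Values are given for each member that passed, had separate groups or a mean of at least 20 CPM, and for up to 5 called genes of each other list except the Dlk1-Dio3 and Kcnq1ot1 domains, which are given as counts. The values of 1 called neighbour are not reported here. Any other gene named was picked with its values in view. Figures used matplotlib 3.10.9.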

Additional observations from a re-analysis of the deposited data

How the results depend on the processing

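Over the 26 imprinted genes described in full and up to 17 alternatives each, 368 values kept their direction and side of the threshold, 46 no longer passed, 9 newly passed and 15 changed sign. The cause of these changes was not tested. Genes called numbered 1512 as reported (1068 higher, 444 lower), 2535 with DESeq2 (1639 and 896), 810 with Xist as a covariate (636 and 174), 439 with the replicate 1 and 2 libraries alone (354 and 85) and 2694 with the replicate 2 and 3 libraries alone (1633 and 1061). The GC and length offset moved the median of all genes by -0.13 on the log2 scale and gave 902 higher and 927 lower, so the higher share of calls went from 70.6 to 49.3%. Leaving out 1 library gave 811 to 1393 calls, 630 to 957 higher and 174 to 436 lower.

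With Xist as a covariate, Ndn, Grb10, Plagl1, Ppp1r9a, Airn and Igf2r did not pass (adjusted p = 0.0589 to 0.148). Imprinted genes called higher were 9 as reported, 3 with the Xist covariate, 1 with the replicate 1 and 2 libraries alone and 2 to 7 without 1 library. Imprinted genes called lower were 0 as reported, 1 with DESeq2, 2 with the offset and 1 with the replicate 2 and 3 libraries alone. Genes that set imprints called lower were 0 as reported, 1 with DESeq2, 4 with the offset and 4 with the replicate 2 and 3 libraries alone. Neighbours called higher were 1 as reported, 3 with no count filter, 3 with DESeq2, 0 with the Xist covariate, 0 with the replicate 1 and 2 libraries alone and 0 to 1 without 1 library. Neighbours called lower were 1 as reported, 2 with DESeq2, 0 with the covariate, 2 with the offset, 0 with the replicate 1 and 2 libraries alone, 4 with the replicate 2 and 3 libraries alone and 0 to 2 without 1 library. In the Dlk1-Dio3 and Kcnq1ot1 domains, 7 higher and 1 lower became 3 and 0 with the covariate, 3 and 0 with the replicate 1 and 2 libraries alone, and 3 to 7 and 0 to 1 without 1 library.

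The replicate numbers are only numbers in the labels. Deviations from the group means correlated by 0.175, 0.228 and 0.0773 between same-numbered libraries. Between differently numbered control-labelled and knockout-labelled libraries they correlated by -0.189 to 0.00103, so every same-numbered pair stood higher. Since the labels do not say what the numbers stand for, the reported fit had no replicate term, and pairing was not tested. With the replicate block 8 imprinted genes were higher, 7 of them among the 9 reported, and 1 was lower. Mest (adjusted p = 0.0111) and H19 (0.0451, lower) passed there, while Igf2r (0.0512) and Airn (0.0526) did not. With the same block 1 imprint-setting gene was lower and 2 neighbours were higher.

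Sign changes were all in genes that did not pass. Igf2 (0.07 as reported) was -0.41 with the offset, -0.06 and -0.03 with the replicate 1 and 2 or 2 and 3 libraries alone, and -0.17 to 0.29 without 1 library (-0.17 without C1, -0.10 without K3). Impact (-0.08) was 0.03 with the covariate, 0.04 with the offset, 0.09 with the replicate 2 and 3 libraries alone, and -0.20 to 0.14 without 1 library (0.04 without C2, 0.14 without K1). Ube3a was -0.42 to 0.03 without 1 library (0.03 without C2), Blcap -0.05 with the replicate 1 and 2 libraries alone, Trappc9 -0.27 with the offset and -0.07 to 0.26 without 1 library (-0.07 without K3), and H13 -0.15 with the offset. With 3 libraries a group and a biological coefficient of variation of 38.3%, small differences could not be detected.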

Other observations

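Noncoding and antisense transcripts that overlap imprinted genes, chosen after their values were seen, belong in no list above. Igf2os, transcribed across Igf2 on the opposite strand, had 17.7, 11.7 and 13 CPM in C1 to C3, against 52.0, 26.3 and 29.0 CPM in K1 to K3. Every knockout-labelled library was above the control-labelled ones (log2 fold change 1.34 ± 0.32, SE; edgeR adjusted p = 0.0307), while Igf2 itself did not pass. The call was lost without C2, C3 or K1 (adjusted p = 0.0530 to 0.110), with the GC and length offset (0.111) and with the replicate 1 and 2 libraries alone (0.161). In GENCODE the pair shares 98 exon bases, and the strand of counting is not given. Nespas, antisense at Gnas, was 4.38 to 6.60 CPM in the control-labelled and 3.55 to 4.71 CPM in the knockout-labelled libraries (edgeR adjusted p = 0.690). Snhg14, the host transcript that runs antisense to Ube3a, was 0.743 to 2.36 and 0.242 to 0.942 CPM (edgeR adjusted p = 0.238).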
